A study of Mus musculus with 12 samples.

Results

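In newborn visual thalamus without *Sox2*, transcripts of the guidance ligand *Slit2* and of the receptors *Robo1*, *Dcc* and *Unc5d* were more abundant than in controls, by 1.33-fold to 1.99-fold in mean level. *Robo2* and *Unc5c* stood at 69.8% and 71.7% of the control level without passing the threshold of the main test, while DESeq2 called both. Without *Nr2f1* the 10 genes described here had changes of the same sign as without *Sox2*, and none of them passed the threshold. The genes are the ligands *Slit1*, *Slit2*, *Slit3* and *Ntn1* and the receptors *Robo1*, *Robo2*, *Robo3*, *Dcc*, *Unc5c* and *Unc5d*, taken by symbol from the 24480 genes of each count table, and all 10 were found and passed the filter on low counts in both lines.

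Slit proteins are secreted and bind Robo receptors on growing axons, which mostly turns those axons away from the source. Netrin-1, the product of *Ntn1*, draws axons that carry DCC and repels those that carry UNC5 receptors, alone or together with DCC. In the embryonic forebrain Slit and netrin signals steer thalamocortical axons past the hypothalamus and through the ventral telencephalon, and Robo receptors also act in the migration and spacing of neurons.

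The 12 libraries came from the dorsolateral geniculate nucleus (dLGN), the thalamic relay of the visual pathway, dissected on the day of birth (P0), with tissue of 3 animals in each library. Mutants of the first line were Sox2 flox/flox with Ror-alpha Cre, and their controls were littermates that carried Sox2 flox/flox or flox/+ and no Cre. Mutants of the second line were Nr2f1 flox/flox with Ror-alpha Cre, and the study's methods describe their controls as flox/flox or flox/+ littermates without Cre. The labels of those controls name the Cre allele and state that no Cre was present. Each of the 4 groups had 3 libraries, so flox alleles were present in every group and Cre only in mutants. Cre in this allele is driven by *Rora* and acts in postmitotic cells of the sensory thalamus.

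Library totals lay between 39293465 and 50095344 counts. *Sox2* had 361 to 382 CPM in the controls of its line and 116 to 152 CPM in the mutants, and *Nr2f1* had 311 to 380 and 101 to 151 CPM in its line. Levels are given in CPM, counts divided by library size after TMM normalization. Markers of thalamic glutamatergic neurons (6 genes, among them *Slc17a6*, *Tcf7l2* and *Rora*) summed to 1417 to 1927 CPM in the 6 control libraries, against 9.95 to 20.1 CPM for 4 markers of pallial neurons. One control library of the *Sox2* line, CTRL_3, stood apart from the other 2 controls and was the control most like the mutants over all genes (mean correlation with the mutants 0.987, against 0.984 and 0.985). CTRL_3 also had the lowest thalamic sum of the 6 controls, and calls and overlaps of the 10 genes that rest on it are given with and without it. The *Nr2f1* mutant library MUT_B was almost as like the controls as the other mutants (mean correlation 0.994 with either group). Its *Nr2f1* level, 151 CPM, was below every control of the line but above the 105 and 101 CPM of MUT_A and MUT_C.

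Windows of 250 bases before a transcription start in the RefSeq annotation of GRCm38.p6 were at hand for 6 of the 10 genes, 8 windows in all. Those of *Slit2* and *Robo1*, 2 genes that rose in *Sox2* mutants, and 1 of the 3 windows of *Robo2*, the neighbour of *Robo1*, are shown because the factor deleted in that line binds DNA. They lie at chr5:47982905-47983154 (plus strand), chr16:72662899-72663148 (plus strand) and chr16:74411826-74412075 (minus strand), and capitals mark CG pairs. All 3 lie inside the annotated spans of their genes, before internal starts and not before the outermost start. Another *Robo2* window, at chr16:75447294-75447543, lies at the 5′ end of that gene and is not shown.
Slit2: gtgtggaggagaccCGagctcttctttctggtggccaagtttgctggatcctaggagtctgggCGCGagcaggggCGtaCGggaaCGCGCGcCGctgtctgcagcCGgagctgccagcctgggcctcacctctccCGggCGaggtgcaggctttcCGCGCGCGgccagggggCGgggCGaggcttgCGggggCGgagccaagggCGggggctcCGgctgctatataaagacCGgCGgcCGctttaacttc
Robo1: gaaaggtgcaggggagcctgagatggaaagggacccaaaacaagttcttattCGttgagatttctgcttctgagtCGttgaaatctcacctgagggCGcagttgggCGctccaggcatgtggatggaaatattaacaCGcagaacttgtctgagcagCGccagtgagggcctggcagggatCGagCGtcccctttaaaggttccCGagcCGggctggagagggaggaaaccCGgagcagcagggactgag
Robo2: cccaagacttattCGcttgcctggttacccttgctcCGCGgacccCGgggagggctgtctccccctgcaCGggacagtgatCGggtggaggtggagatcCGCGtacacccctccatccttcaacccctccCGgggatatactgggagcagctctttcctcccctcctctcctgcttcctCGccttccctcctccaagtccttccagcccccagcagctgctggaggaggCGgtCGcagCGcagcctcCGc

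The *Slit2* window held 25 CG pairs, that of *Robo1* 11 and that of *Robo2* 14, against a median of 6 over the 32851 windows of the table. The other 2 *Robo2* windows held 8 and 4. GC content was 69.6% for *Slit2*, 56.0% for *Robo1* and 65.6% for the *Robo2* window shown, against a median of 52.4%. The letters TATAAA, the core of a TATA box, were found 28 bases before the start that the *Slit2* window precedes. None of the other 7 windows held them, and 12.4% of all windows held them on either strand. The core bound by SOX proteins, ACAAT on either strand, was found in 0 of the 8 windows and in 27.7% of all windows. AGGTCA, a half-site of nuclear receptors such as NR2F1, was found in 0 of the 8 and in 14% of all windows. All 250 bases of the *Unc5c* window and 232 of the *Slit3* window are annotated as exon. The paper reports SOX2 peaks in introns and between genes as well as at promoters, and binding outside these windows was not tested.

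The genes are long, with spans from 17.4 kb (*Robo3*) to 1555 kb (*Robo2*), and *Robo1* (1019.97 kb), *Robo2* and *Dcc* (1098 kb) are the longest. *Robo1* (plus strand, 72027518 to 73047491) and *Robo2* (minus strand, 73891976 to 75447443) lie on chromosome 16 with their 3′ ends facing and 844 kb between them. *Robo3* (37416045 to 37433436) lies 2.02 kb from *Robo4* on chromosome 9. *Slit2* lies on chromosome 5 (47981291 to 48307735), *Slit3* and *Ntn1* on chromosome 11, *Slit1* on chromosome 19, *Unc5c* on chromosome 3 and *Unc5d* on chromosome 8. No exon of the 10 genes overlapped an exon of another gene in the tables.

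To compare genes with each other, control levels were divided by transcript length. *Robo2* had the highest level in both lines, 25.9 ± 5.26 CPM per kb in *Sox2* line controls and 28.9 ± 1.40 in *Nr2f1* line controls (SD, n = 3). *Robo1* followed with 19.3 ± 1.44 and 20.6 ± 0.911 CPM per kb. Libraries of this pair overlapped in the *Sox2* line, where *Robo2* had 19.9 CPM per kb in CTRL_3 and 28.9 or more in the other 2 controls, and were separate in the *Nr2f1* line. *Slit1* (8.88 and 8.77 CPM per kb) and *Unc5c* (8.64 and 9.79) came next, with libraries that overlapped in the *Sox2* line, where their order also changed with the longest annotated transcript of each gene. *Ntn1* had 3.06 and 2.71 CPM per kb and *Dcc* 2.11 and 2.30, a pair whose libraries overlapped in the *Nr2f1* line. *Unc5d* (0.969 and 1.22) and *Slit2* (0.966 and 1.03) overlapped in both lines. *Slit3* (0.283 and 0.276) and *Robo3* (0.176 and 0.184) had the lowest means, with overlap in the *Sox2* line. Levels per kb thus ranged over 2 orders of magnitude, with Robo receptors at both ends.

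**Figure D1:**
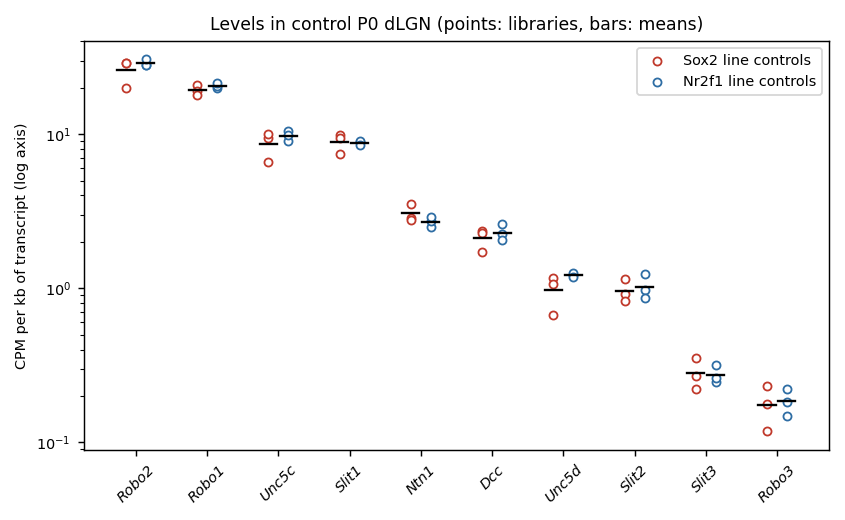
Levels of the 10 genes in the control libraries of both lines, in CPM per kb of transcript on a log axis, with 1 open point for each library (red, *Sox2* line; blue, *Nr2f1* line) and a bar at each mean of 3. *Robo2* and *Robo1* stand at about 19 to 29 CPM per kb and *Slit3* and *Robo3* below 0.4.

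The first question was which of these genes changed when *Sox2* was deleted. Of the 10 genes, 4 were upregulated in *Sox2* mutants and 0 downregulated (edgeR, FDR<0.01). Over all 15602 genes tested, 8.08% passed in either direction, 3.9% upward and 4.19% downward. For 8 of the 10 genes the mutant libraries were separate from the controls, against 37.9% of all genes tested, and 9 of the 10 had an unadjusted p below 0.05, against 35% of all genes. The median log2 fold change was 0.55 over the 10 genes and 0.00050 over all genes. Because the 10 genes were chosen with earlier results of these data known, these shares are a description and not a test of the set. The same holds for the shares in the *Nr2f1* line and for the difference between the mutants. DESeq2 and the likelihood ratio test each called 8 of the 10, 6 upward and 2 downward (*Robo2* and *Unc5c*). They called 16.1% and 15.1% of all genes. The 4 calls became 1 without the control CTRL_2 or the mutant MUT_4, 2 without MUT_1 or MUT_3, and 7 without CTRL_3. Over all genes the share called was 3.12% and 3.15%, 5.58% and 5.75%, and 13.7% in those fits.

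Among the ligands, *Slit2*, known for repelling thalamocortical axons from the hypothalamus, had 11.5, 9.18 and 8.22 CPM in the control libraries CTRL_1, CTRL_2 and CTRL_3 and 16.5, 15.04 and 15.1 CPM in the mutant libraries MUT_1, MUT_3 and MUT_4. All 3 mutant libraries were above all 3 controls. This was a rise of 0.69 on the log2 scale (SE 0.13, edgeR FDR 0.00654). The call was lost without CTRL_2, MUT_1, MUT_3 or MUT_4, with log2 fold changes of 0.60 to 0.84 when any 1 library was left out.

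*Slit3*, a Slit expressed at low level here, had 1.85, 1.42 and 1.16 CPM in controls and 5.36, 2.24 and 4.03 CPM in mutants. Its groups did not overlap, but the mutants spread over a wide range. The log2 fold change was 1.38 (SE 0.32, FDR 0.0151), from 47 to 220 counts a library. *Slit3* was called in 6 of 14 other fits, among them DESeq2 and the likelihood ratio test. Within each group, libraries with more *Slit3* had more RNA of the pallial neuron list (*Neurod6*, *Emx1*, *Emx2* and *Tbr1*), whose 4 genes summed to 20.1, 13.96 and 9.95 CPM in controls and 50.7, 18.1 and 31.0 CPM in mutants. That list had 0 of 4 genes called and none at 0 in any library, and its part in the *Slit3* levels was not tested.

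*Slit1*, the most abundant Slit in these libraries, had 49.4, 47.6 and 37.3 CPM in controls and 53.4, 44.8 and 50.3 CPM in mutants, with overlapping groups (log2 fold change 0.14, SE 0.11, FDR 0.393). *Ntn1*, which encodes netrin-1, had 16.5, 15.8 and 20.3 CPM in controls and 18.8, 23.5 and 22.2 CPM in mutants, again with overlap (0.29, SE 0.12, FDR 0.125). Without CTRL_3 the groups of *Ntn1* were separate (0.42, FDR 0.0263). Of the 4 ligand genes, then, *Slit2* alone passed the threshold in the main edgeR fit of *Sox2* mutants.

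**Figure D2:**
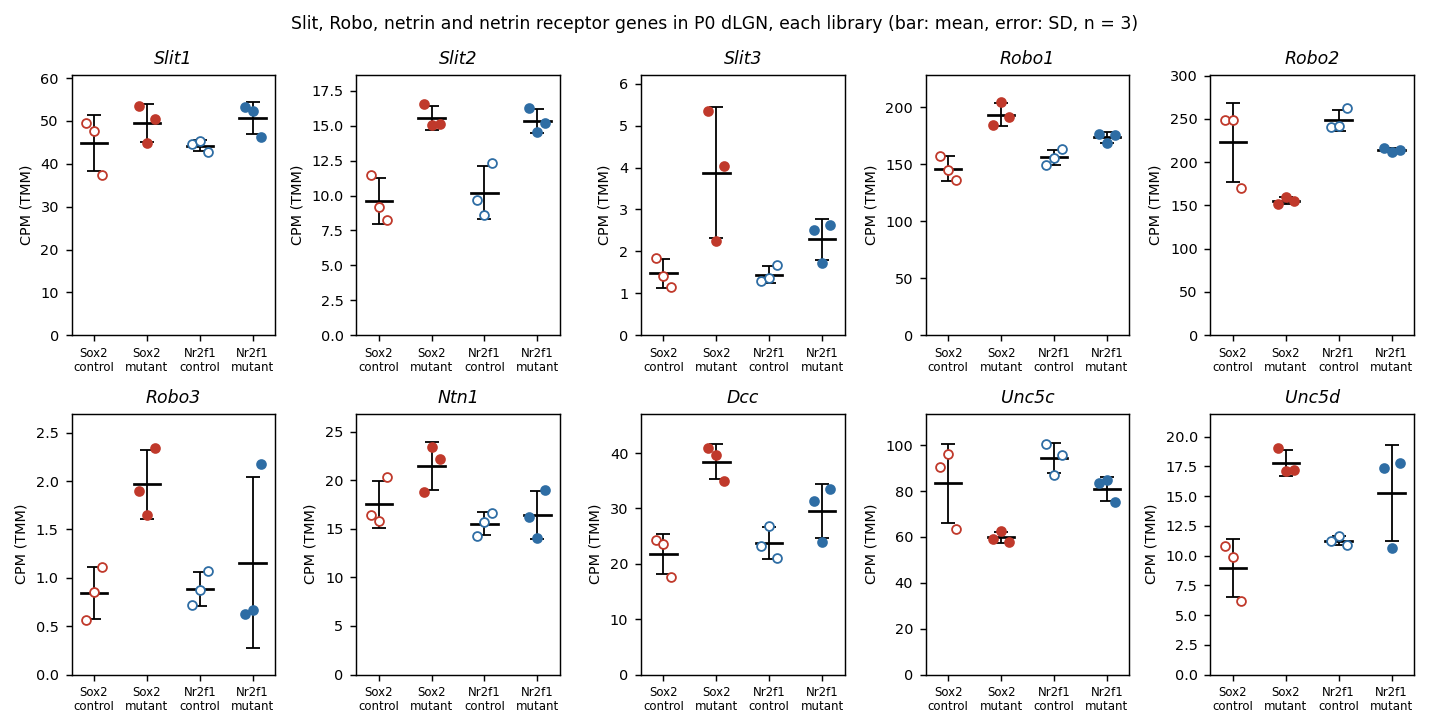
Level of each of the 10 genes in CPM in the 3 libraries of each group (open points, controls; filled points, mutants; red, *Sox2* line; blue, *Nr2f1* line), with the mean and SD. *Slit2*, *Robo1*, *Dcc* and *Unc5d* are higher in all *Sox2* mutant libraries than in any control of that line, and *Robo2* and *Unc5c* are lower.

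Of the Slit receptor genes, *Robo1* alone passed the threshold in the main edgeR fit with all libraries. It had 158, 145 and 136 CPM in controls and 185, 205 and 191 CPM in mutants, without overlap, and *Robo1* rose by a log2 fold change of 0.41 (SE 0.07, FDR 0.00557). This call was lost without CTRL_2, MUT_3 or MUT_4 (0.37 to 0.46 over the 6 fits that left out a library). *Robo2*, which binds the same ligands as *Robo1*, had 249, 249 and 171 CPM in controls and 152, 159.6 and 155 CPM in mutants. Here too the groups did not overlap, though CTRL_3 lay closer to the mutants than to the other 2 controls. The log2 fold change of *Robo2* was -0.52 (SE 0.13, FDR 0.0212), and without CTRL_3 it was -0.67 and passed the threshold. *Robo2* was called in 5 of 14 other fits in all. With all libraries these were DESeq2, the likelihood ratio test, 1 fit over all 12 libraries and the fit with no filter on low counts.

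In the *Sox2* line, *Robo2* and the thalamic glutamatergic list were both lower in CTRL_3 than in the other controls and lower still in mutants. That list summed to 1815, 1693 and 1417 CPM in controls and 1203 to 1240 CPM in mutants, with 4 of its 6 genes downregulated (*Slc17a6*, *Lef1*, *Prox1* and *Rora*). *Tcf7l2* and *Lhx2* had positive changes without a call (0.12 and 0.06). *Rora* fell from a mean of 335 to 86 CPM. Cre was inserted into *Rora* and was present only in mutants. The paper considers it unlikely that the insertion lowered *Rora*, because it reports *Rora* as unchanged in *Nr2f1* mutants. Here *Rora* stood at 84.0% of the control level in *Nr2f1* mutants, with overlapping groups (log2 fold change -0.25, edgeR FDR 0.204). The part of the insertion in the *Rora* level was not tested. In the *Nr2f1* line *Robo2* was also lower in every mutant library than in any control. There the list summed to 1748 to 1927 CPM in controls and 1754 to 2026 CPM in mutants, with overlap. Its genes moved in both directions in that line. Of the 6, 2 were upregulated (*Prox1*, edgeR FDR 0.00177, and *Lhx2*, FDR 0.00255) and 1 was downregulated (*Lef1*, FDR 0.00853). The part of neuron composition in the *Robo2* level was not tested, and in bulk tissue fewer cells of a type and less RNA in each cell cannot be told apart.

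*Robo3*, a divergent Robo known from commissural axons of the hindbrain and spinal cord, was barely present, with 0.565, 0.852 and 1.11 CPM in controls and 1.90, 1.65 and 2.35 CPM in mutants of the *Sox2* line. The groups did not overlap (log2 fold change 1.22, SE 0.29, FDR 0.0179). It rested on as few as 25 counts in a library, passed the threshold without CTRL_3, and did so in 3 of 14 other fits in all.

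Of the netrin receptors, *Dcc*, which mediates attraction to netrin-1, had 24.2, 23.6 and 17.6 CPM in controls and 40.9, 39.6 and 34.9 CPM in mutants. The groups were well apart, with the lowest mutant above the highest control. *Dcc* rose by a log2 fold change of 0.82 (SE 0.12, FDR 0.00207), and it was called in 14 of 14 other fits, with changes of 0.70 to 0.96 and an FDR of at most 0.00824. Among the 10 genes it was the only one called in every fit of the *Sox2* line.

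*Unc5d*, an UNC5 family receptor that also binds FLRT proteins, had 10.8, 9.89 and 6.15 CPM in controls and 19.0, 17.1 and 17.2 CPM in mutants, with all mutants above all controls. It rose by a log2 fold change of 0.99 (SE 0.18, FDR 0.00552), a call lost without CTRL_2, MUT_1, MUT_3 or MUT_4 (0.79 to 1.15). *Unc5c*, its relative that mediates repulsion by netrin-1, had 90.5, 96.0 and 63.6 CPM in controls and 59.0, 62.5 and 57.8 CPM in mutants. Only CTRL_3 came near the mutants, and it lay 1.12 CPM above the highest mutant library. The log2 fold change of *Unc5c* was -0.48 (SE 0.13, FDR 0.0323), and -0.63 with a call without CTRL_3. *Unc5c* was called in 4 of 14 other fits in all. With all libraries these were DESeq2, the likelihood ratio test and 1 fit over all 12 libraries.

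**Figure D3:**
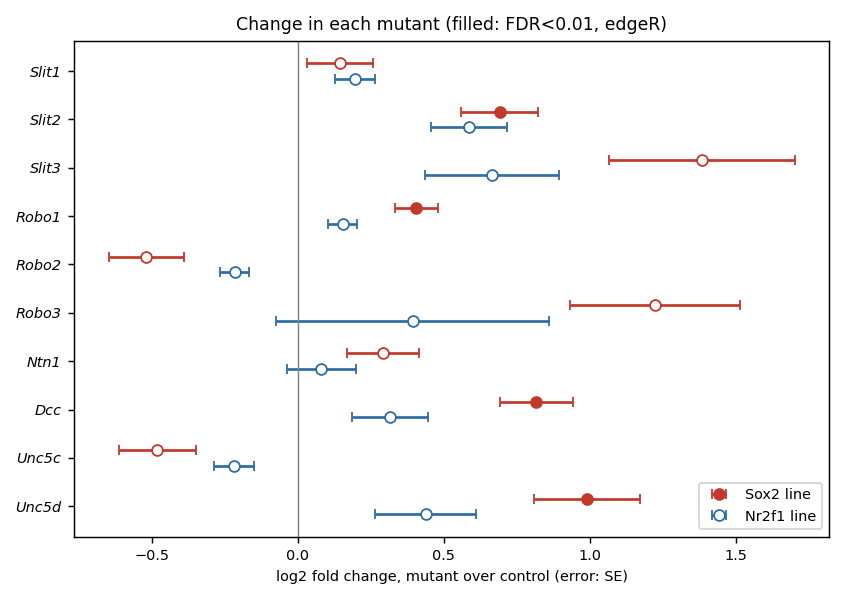
Log2 fold change of each gene, mutant over control, with its standard error, in the *Sox2* line (red) and the *Nr2f1* line (blue), with filled points for genes with an edgeR FDR below 0.01. The 4 filled points, all in the *Sox2* line, lie between 0.41 and 0.99, and for each gene both lines lie on the same side of 0.

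The second question was whether deletion of *Nr2f1* had the same effect. None of the 10 genes was called in *Nr2f1* mutants (edgeR, FDR<0.01), where 2.54% of the 15600 genes tested passed, 1.22% upward and 1.32% downward. An unadjusted p below 0.05 was found for 8 of the 10, against 24.6% of all genes. DESeq2 called *Slit2* and *Robo2* (7.57% of all genes called), and the likelihood ratio test called *Slit2* (6.98%). Libraries did not overlap for 6 of the 10, against 28.6% of all genes tested, and the median log2 fold change was 0.26, against 0.01 over all genes.

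*Slit2* had 9.71, 8.64 and 12.3 CPM in the control libraries CTRL_B, CTRL_D and CTRL_E and 16.3, 14.6 and 15.2 CPM in the mutant libraries MUT_A, MUT_B and MUT_C. The groups did not overlap, and the log2 fold change was 0.59 (SE 0.13, FDR 0.0270). *Robo2* had 241, 242 and 262 CPM in controls and 216, 212 and 213 CPM in mutants, also without overlap (-0.22, FDR 0.0291). These were the 2 genes with an FDR below 0.05 in this line.

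*Robo1* had 149.6, 155 and 163 CPM in controls and 177, 169 and 176 CPM in mutants, a difference without overlap but small (log2 fold change 0.15, FDR 0.0906). *Unc5c* had 101, 87.2 and 95.5 CPM in controls and 83.5, 84.7 and 75.1 CPM in mutants (-0.22, FDR 0.0837). *Slit1* had 44.6, 45.4 and 42.8 CPM in controls and 53.3, 52.4 and 46.3 CPM in mutants (0.20, FDR 0.117). For all of these the groups were separate, by margins of 0.974 to 5.18 CPM.

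*Dcc* and *Unc5d* divided the *Nr2f1* mutants. *Dcc* had 23.2, 26.9 and 21.1 CPM in controls and 31.3, 24.01 and 33.4 CPM in mutants (0.32, FDR 0.172). *Unc5d* had 11.3, 11.6 and 10.9 CPM in controls and 17.3, 10.6 and 17.8 CPM in mutants (0.44, FDR 0.157). For both genes MUT_A and MUT_C were above every control while MUT_B was within or below the control range. Without MUT_B the log2 fold change of *Unc5d* was 0.64 with an FDR of 0.00239, the one fit that left out a library and called any of the 10 genes in this line. That fit called 5.5% of all genes.

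The list for inhibitory neurons and prethalamus (*Gad1*, *Gad2*, *Slc32a1*, *Dlx1*, *Dlx5* and *Sox14*) divided the same libraries. Its 6 genes summed to 118, 122 and 112 CPM in *Nr2f1* line controls and to 172, 109.9 and 227 CPM in MUT_A, MUT_B and MUT_C. In the *Sox2* line they summed to 110.5, 131 and 86.4 CPM in controls and 196, 148 and 163 CPM in mutants, without overlap. None of the 6 genes was called in either line, all 6 had positive changes in both, and none was at 0 in any library. Other lists divided the *Nr2f1* mutants in the same way. Endothelial genes summed to 214 to 264 CPM in controls of that line and to 346, 258 and 374 CPM in MUT_A, MUT_B and MUT_C. For meningeal and perivascular fibroblast genes the sums were 687 to 1044 CPM in controls and 1873, 994 and 2300 CPM in those mutants. The part of any of these lists in the *Unc5d* and *Dcc* levels was not tested.

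*Slit3* had 1.28, 1.36 and 1.67 CPM in controls and 2.51, 1.73 and 2.62 CPM in *Nr2f1* mutants, barely separate groups (0.66, FDR 0.112). MUT_A and MUT_C, the higher mutants for *Slit3*, also had the most RNA of 5 meningeal and perivascular fibroblast genes (*Col1a1*, *Col1a2*, *Col3a1*, *Lum* and *Dcn*), with sums of 1873 and 2300.1 CPM against 687 to 1044 CPM in the other 4 libraries of the line. The pallial list, in contrast, spanned 10.1 to 13.9 CPM over the 6 libraries. In the *Sox2* line the fibroblast sum did not follow *Slit3*, being highest in MUT_3 (3118 CPM), the mutant with least *Slit3*. The part of either cell type in *Slit3* was not tested.

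*Robo3* had 0.714, 0.876 and 1.07 CPM in controls and 0.627, 0.672 and 2.17 CPM in *Nr2f1* mutants, with overlap, and its log2 fold change turned from 0.39 to -0.45 without MUT_C. *Ntn1* had 14.2, 15.7 and 16.6 CPM in controls and 16.2, 14.02 and 19.04 CPM in mutants (0.08, FDR 0.727), also with overlap and a change of sign without MUT_C (-0.04).

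**Figure D4:**
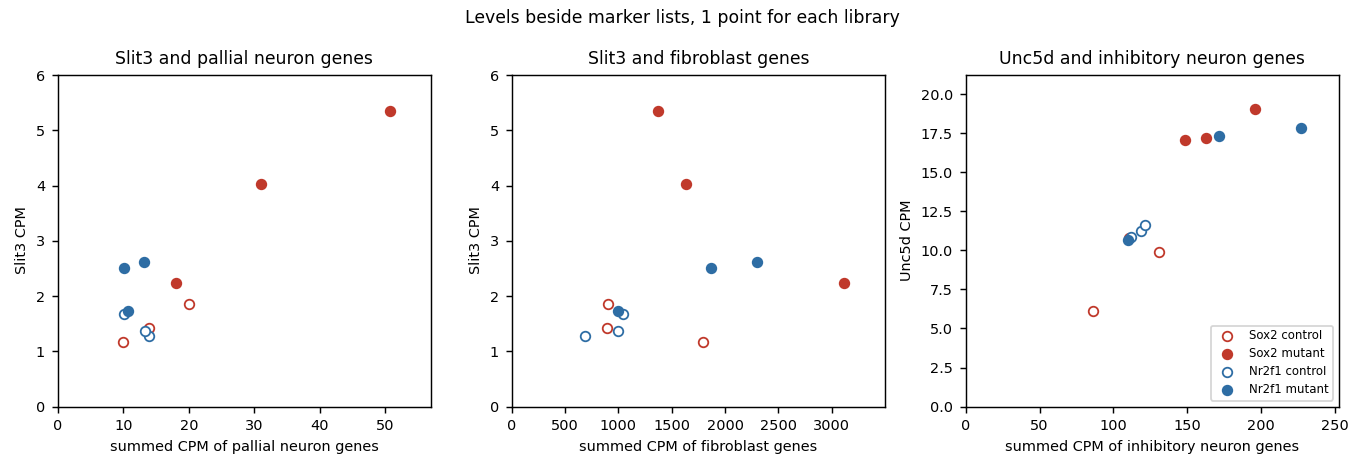
Level of *Slit3* in CPM against the summed CPM of pallial neuron genes and of fibroblast genes, and level of *Unc5d* against that of inhibitory neuron genes, with 1 point for each of the 12 libraries (open, controls; filled, mutants; red, *Sox2* line; blue, *Nr2f1* line). The 5 libraries with *Unc5d* above 17 CPM, 3 *Sox2* mutants and 2 *Nr2f1* mutants, are those with the highest inhibitory sums (148 to 227 CPM).

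The changes in both lines were then compared in 1 fit. For 9 of the 10 genes the change was larger in *Sox2* than in *Nr2f1* mutants, with *Slit1* the exception, and none of the differences passed the threshold, against 1.44% of the 15989 genes tested. DESeq2 and the likelihood ratio test also called 0 of the 10 (3.61% and 3.1% of all genes called), and 2 had an unadjusted p below 0.05, against 16.2% of all genes. Those were *Robo1*, whose log2 fold change was higher by 0.26 in *Sox2* mutants (SE 0.09, FDR 0.130), and *Dcc*, higher by 0.51 (SE 0.20, FDR 0.204). For *Slit2* the difference was 0.11 (SE 0.19). *Unc5d* differed by 0.56 (SE 0.28) and *Robo2* by -0.29 (SE 0.15), and without CTRL_3 the *Robo2* difference was -0.45 and passed (FDR 0.00211). A larger effect of *Sox2* than of *Nr2f1* on these genes was therefore not detected at FDR<0.01 with all libraries.

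Ratios of 2 genes within a library do not depend on scaling between libraries. *Robo1* and *Robo2* share Slit ligands, and their ratio was 0.633, 0.582 and 0.797 in *Sox2* line controls and 1.22, 1.28 and 1.24 in mutants. The mean thus went from 0.671 ± 0.112 to 1.25 ± 0.03 (SD, n = 3), 1.86-fold, and 2.05-fold without CTRL_3. The ratio in the *Nr2f1* line was 0.621, 0.641 and 0.622 in controls and 0.816, 0.795 and 0.825 in mutants, 1.29-fold, also without overlap. Since the genes of each ratio had been seen to differ in opposite directions, the ratios are given as a description, with no test. *Robo2* counts exceeded those of *Robo1* in all control libraries of both lines and in the *Nr2f1* mutants, whereas in the 3 *Sox2* mutant libraries *Robo1* counts were the higher.

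The ratio of *Unc5d* to *Unc5c* went from 0.106 ± 0.011 to 0.298 ± 0.024 in the *Sox2* line (SD, n = 3), 2.80-fold, without overlap. It was, in the *Nr2f1* line, 0.112, 0.133 and 0.114 in controls and 0.208, 0.126 and 0.237 in mutants, and MUT_B was within the control range (1.59-fold). The ratio of the attractive receptor gene *Dcc* to the repulsive *Unc5c* went from 0.264 ± 0.016 to 0.644 ± 0.045 in the *Sox2* line, 2.44-fold without overlap, and from 0.253 ± 0.048 to 0.368 ± 0.081 in the *Nr2f1* line, with overlap (1.45-fold). These 3 ratios were chosen after the levels had been seen. Summed over the 10 genes, the level was 462 to 611 CPM in *Sox2* line controls and 550.3 to 571 CPM in mutants. The overlap rested on CTRL_3 (462 CPM), since the other 2 controls had 598 and 611 CPM, above every mutant library.

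**Figure D5:**
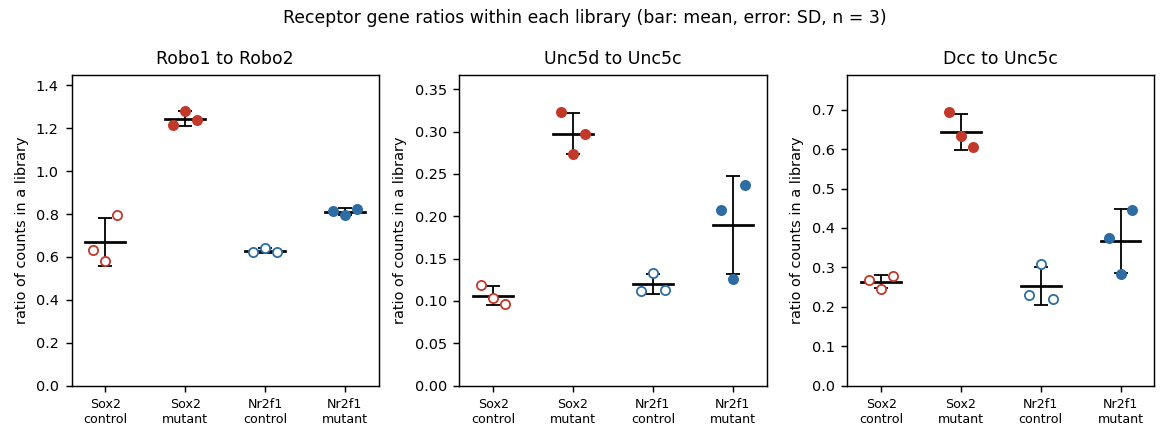
Ratios of counts within each library for *Robo1* to *Robo2*, *Unc5d* to *Unc5c* and *Dcc* to *Unc5c* (points, libraries; bar and error, mean and SD of 3; red, *Sox2* line; blue, *Nr2f1* line). All 3 ratios are higher in every *Sox2* mutant library than in any control of the line, and in the *Nr2f1* line only the *Robo1* to *Robo2* ratio is without overlap.

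Of 43 further genes of these pathways, 42 were tested in both lines, *Ntn5* being too low. In *Sox2* mutants 2 were upregulated and 4 downregulated, and in *Nr2f1* mutants also 2 and 4 (edgeR, FDR<0.01), against 8.08% and 2.54% of all genes called in the 2 lines in either direction. The median log2 fold changes of the 42 genes were -0.07 and -0.04. None was called for the difference between the mutants, where 1.44% of all genes passed.

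Of 8 other ligand genes 7 were tested. In *Sox2* mutants 3 were called and in *Nr2f1* mutants 2, against 8.08% and 2.54% of all genes. *Nell2*, a ligand of *Robo3*, had 375, 346 and 294 CPM in *Sox2* line controls and 204, 176 and 187 CPM in mutants, well apart, and fell by 0.84 on the log2 scale (SE 0.10, FDR 0.000501). The *Nr2f1* line had 330.4, 329 and 321 CPM in controls and 227, 263 and 228 CPM in mutants (-0.45, SE 0.06, FDR 0.00318). Its relative *Nell1* was also lower in both, by -0.63 and -0.42. *Rgma*, a ligand of the DCC relative neogenin, fell by 0.69 in *Sox2* mutants (FDR 0.00488) and had -0.22 in *Nr2f1* mutants, without a call there. In *Sox2* mutants *Nell1* and *Nell2* were called in 6 of 6 fits that left out a library and *Rgma* in 2 of 6. In *Nr2f1* mutants *Nell1* was called in 2 of 6 such fits and *Nell2* in 1 of 6.

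Among extracellular partners, *Flrt1* and *Flrt2* encode membrane proteins of the FLRT family, which bind UNC5 receptors and latrophilins. *Flrt2* had 39.03, 39.1 and 44.3 CPM in *Sox2* line controls and 55.6, 75.9 and 64.5 CPM in mutants, without overlap, and rose in both lines (0.68, FDR 0.00318, and 0.81, FDR 0.00526). *Flrt1* rose in *Sox2* mutants (0.86, FDR 0.000611) and had 0.47 in *Nr2f1* mutants (FDR 0.0181). *Gpc1*, a heparan sulfate carrier that binds Slit, was lower in *Nr2f1* mutants (-0.28, FDR 0.00853). With a library left out, *Flrt1* was called in 6 of 6 and *Flrt2* in 3 of 6 fits of the *Sox2* line, and *Flrt2* in 1 of 6 and *Gpc1* in 0 of 6 of the *Nr2f1* line.

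None of the 5 other receptor genes (*Robo4*, *Unc5a*, *Unc5b*, *Neo1* and *Dscam*) was called in either line in the main edgeR fit with all libraries. *Unc5b* and *Dscam* were called in the *Sox2* line without CTRL_3. Of 24 genes for intracellular effectors, *Ablim1*, an actin-binding protein, was downregulated in both lines (-0.38 and -0.28), a call kept in 1 of 6 fits that left out a library in each line. Its relative *Ablim3* was upregulated in *Nr2f1* mutants (0.70, FDR 0.000116), where it had 217 to 237 CPM in controls and 358 to 377 CPM in mutants. The Slit-Robo GTPase-activating proteins *Srgap1*, *Srgap2* and *Srgap3* had no call in either line in the main edgeR fit with all libraries. In the *Sox2* line *Srgap2* was called without CTRL_3, and with all libraries by DESeq2, the likelihood ratio test and 1 fit over all 12 libraries. The count of 6 calls in the *Nr2f1* line rested on every library except MUT_B, since it was 1 without CTRL_B, CTRL_E, MUT_A or MUT_C and 2 without CTRL_D, and *Ablim3* was called in all 6 such fits. In the *Sox2* line it was 3 without CTRL_1, CTRL_2 or MUT_4 and 15 without CTRL_3.

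Other cell types also differed between *Sox2* mutants and controls in the libraries where these genes moved. The 5 microglial genes were all upregulated, with sums of 80.6 to 89.8 CPM in controls and 173 to 196 CPM in mutants, and 3 of 5 astrocyte genes were upregulated (912 to 1079 and 1366 to 1537 CPM). These sums were, in the *Nr2f1* line, 62.0 to 71.5 and 76.7 to 102 CPM for microglia and 736 to 746 and 829 to 941 CPM for astrocytes. None of the markers was at 0 in any library. Endothelial genes summed to 232 to 356 and 318 to 420.2 CPM in the *Sox2* line, with CTRL_3 (356 CPM) the one control within the mutant range, and the oligodendrocyte lineage to 528 to 643 and 650.5 to 756 CPM. The 4 habenula genes summed to 46.8 to 60.9 and 24.5 to 29.8 CPM, nearly all of it *Nhlh2*, which was downregulated, while the other 3 (*Pou4f1*, *Gpr151* and *Tac1*) had positive changes without a call. The 5 genes of neurons of any kind summed to 4207 to 4967 and 4057 to 4394 CPM, and the overlap rested on CTRL_3, since the other 2 controls had 4922 and 4967 CPM. Of these 5 genes 4 had negative changes, and *Syt1* alone was called (log2 fold change -0.98, edgeR FDR 0.000375), while *Map2* had a positive change (0.15). In the *Nr2f1* line the 5 summed to 4957 to 5134.5 CPM in controls and 4482 to 4850 CPM in mutants, without overlap and with no call. The part of these cell types in the levels of the 10 genes was not tested.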

How the data were processed

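Counts were measured by RNA-seq in 12 libraries of P0 dLGN. Per the paper's methods, the authors mapped read pairs with STAR to RefSeq transcripts and deposited expected counts per gene from RSEM, without normalization, 1 table for each line. Submitters' notes name STAR and mm10. Values were rounded, since 7.92% and 7.62% in the 2 tables were not whole. Columns were assigned to groups by their names. Genes were filtered with filterByExpr (minimum count 10, minimum total 15), scaled with TMM and fitted in edgeR 4.0.16 (R 4.3.3; quasi-likelihood F-test), each line against its own controls, with Benjamini-Hochberg adjustment over all genes and FDR<0.01. The difference between mutants was the interaction of line and genotype. Level SD are over 3 libraries. The p-values test a difference between groups against the variation between pools, with dispersion estimates that draw on all genes.

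The 10 genes and the lists were chosen with earlier results of these data known. Named genes are the 10, pathway genes called in either line or for the difference, markers, and *Sox2* and *Nr2f1*, and others named in the text were chosen after their values were seen. Lengths came from GENCODE vM21, taking the longest coding transcript matched to RefSeq, because the RefSeq table gives genomic spans. Replicates differed beyond sampling noise (chi-square per degree of freedom at least 10.4). Alternatives were other filters, upper quartile scaling, DESeq2 1.42.0, other edgeR tests, 1 fit over 12 libraries, a replicate block, FDR<0.05, each library left out, and, chosen after seeing the data, ratios within libraries. The *Dcc* sequence and some marker genes are not reported here, and marker sums leave those genes out.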

Additional observations from a re-analysis of the deposited data

How the results depend on the processing

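In *Sox2* mutants 4 of the 10 genes were called. DESeq2 called 8, the likelihood ratio test 8, and the count was 7 in 1 fit over all 12 libraries, 8 at FDR<0.05, and 1 to 7 when 1 library was left out. The 12-library fit called 13% of all genes, and 19.8% passed FDR<0.05. Of the other pathway genes 6 were called there, and 14, 12, 13 and 15 under those 4 settings, and 3 to 15 without 1 library. In *Nr2f1* mutants 0 of the 10 were called, while DESeq2 called 2 and the likelihood ratio test 1, and the count was 2 at FDR<0.05, which 7.4% of all genes passed, and 0 to 1 without 1 library. Of the other pathway genes 6 were called there, with 12, 11 and 12 under the same 3 settings and 1 to 8 without 1 library. For the difference between the mutants the count of 0 became 0 to 1 without 1 library. The cause of these moves was not tested, except that a fit without a library has fewer samples and that FDR<0.05 is the wider threshold. With 1 library left out, the log2 fold change in *Nr2f1* mutants was -0.45 to 0.68 for *Robo3* and -0.042 to 0.18 for *Ntn1*, and the difference between the mutants was -0.15 to 0.033 for *Slit1* and -0.035 to 0.26 for *Slit2*. No other value of the 10 genes changed sign.

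The replicate block was fitted in the *Sox2* line only, since columns of the *Nr2f1* line share 1 letter. The column numbers 1 and 3 are shared by a control and a mutant, and deviations from the group means correlated at 0.22 and 0.21 for those pairs, but at 0.24 for CTRL_2 with MUT_1, so that the numbers are not known to pair the libraries. With the replicate block 4 of the 10 genes were called, *Slit3* in place of *Robo1*, and 7 of the other pathway genes. With 25 to 106 counts a library *Robo3*, and with 47 to 220 *Slit3*, allow less precision than the other 8 genes, which had at least 249.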

Other observations

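*Draxin*, which encodes a secreted protein that binds netrin-1 and DCC, was singled out after its values were seen because its libraries were separate in both lines in opposite directions. It had 64.5, 69.2 and 61.1 CPM in *Sox2* line controls and 89.7, 75.2 and 70.6 CPM in mutants (log2 fold change 0.27, SE 0.10, edgeR FDR 0.0723). In the *Nr2f1* line it had 74.1, 69.2 and 69.1 CPM in controls and 57.3, 64.8 and 64.6 CPM in mutants (-0.19, SE 0.06, FDR 0.113). The log2 fold change was higher in *Sox2* than in *Nr2f1* mutants by 0.47 (SE 0.12, FDR 0.0483), which did not pass FDR<0.01. *Unc5a*, a netrin receptor gene also singled out after its values were seen, had 57.4, 37.9 and 42.8 CPM in *Sox2* line controls and 48.1, 36.5 and 44.4 CPM in mutants, with overlap. In the *Nr2f1* line it had 59.4, 49.7 and 53.0 CPM in controls and 35.6, 44.8 and 38.0 CPM in mutants, without overlap (-0.45, SE 0.10, FDR 0.0229). Its change differed between the lines by 0.36 (*Sox2* minus *Nr2f1*, SE 0.20, FDR 0.421).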
